A study of Mus musculus with 6 samples.

Results

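Splicing of pre-mRNA needs a large set of genes, and 130 of them were described in injured mouse muscle. They were the genes whose symbol starts with Srsf, Hnrnp, Sf3a, Sf3b, Prpf, Snrp, Lsm or Rbm (118 genes), together with 12 genes taken by name: Srrm1, Srrm2, U2af1, U2af2, Son, Mbnl1, Mbnl2, Celf1, Celf2, Ptbp1, Rbfox1 and Rbfox2. The deposited table held 14015 genes with a symbol. Because the rule reads symbols alone, it also took genes that work outside splicing, and it passed over spliceosome genes named otherwise, such as those starting with Snrnp. By known function, 33 members encode core proteins of the small nuclear ribonucleoproteins (snRNPs) and 16 encode proteins that join the spliceosome at some of its steps. A further 53 were counted as regulators of splice site choice. The other 28 were placed outside these groups, though some of the 28 may also act in splicing. The 53 include Srrm1 as well as Son and Srrm2, which are described below as scaffold genes of nuclear speckles.

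The RNA came from muscle of 6 mice at 7 days after volumetric muscle loss (VML), a surgical removal of a piece of the quadriceps, with no implant placed in the defect. There were 3 WT mice, which are female C57BL/6 mice, and 3 mice with the genotype GATA-1 mutant, the ΔdblGATA strain. This strain carries a germline deletion of a GATA site in the promoter of Gata1 and lacks eosinophils from birth, so the loss is not limited to the muscle or to the time after injury. Every mouse of both groups was injured, and uninjured muscle was not analysed here.

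The measurement was polyA-selected RNA sequencing of whole tissue. The value used for each gene is the authors' mean log2 CPM (read counts scaled to the library's total) over all 6 mice, so that every level is 1 pooled value with no spread between mice. No difference between WT and ΔdblGATA mice is given, and an order of genes carries no replicate error. The number of mice and the depth behind each value, which is unknown here, limit the precision. In whole tissue, fewer cells of a type and less RNA per cell cannot be told apart.

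The tissue label was checked against marker genes on a length-adjusted scale, log2 CPM per kb, which is the mean log2 CPM less the log2 of the length in kb of the gene's longest coding transcript. All 6 skeletal muscle markers had values, between 5.92 for Ttn and 13.77 for Acta1 in log2 CPM per kb. Of 4 macrophage markers, 3 had values, from 3.92 for Csf1r to 8.72 for Lyz2. All 3 fibroblast markers had values, from 2.95 for Pdgfra to 9.27 for Col3a1, and both endothelial markers stood at 4.53 and 4.63 per kb. The 4 eosinophil markers Siglecf, Ccr3, Epx and Prg2 were not analysed here. The splicing genes are used by all of these cells, and which cells gave each level was not tested.

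As background, the spliceosome is assembled anew on each intron from snRNPs, each of which holds a short RNA inside a ring of Sm or LSm proteins. The U1 snRNP marks the start of the intron, the U2 snRNP the branch point near its end, and the U4/U6.U5 tri-snRNP brings the RNAs that form the catalytic centre. Which splice sites are taken is set by regulators. SR proteins, named for their tails of arginine and serine, mostly promote the use of the exons they bind, while hnRNP proteins often oppose them. Skeletal muscle has its own set of such regulators, among them Rbfox, Mbnl, Celf, Rbm20 and Rbm24, which act on the splicing of sarcomere and calcium handling genes.

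Core snRNP genes were compared with regulators. Both groups lay well above the typical gene once length was taken into account. The median level was 4.0 log2 CPM per kb over the 33 core genes and 4.56 over the 53 regulators, against 2.27 over the 13940 genes with a transcript length. A core gene was above that all-gene median in 32 of 33 cases, Prpf4 being the exception at 2.26 per kb. A regulator was above it in 51 of 53 cases, the exceptions being Hnrnpr at 1.24 and Rbm47 at 0.41 per kb. Among the most abundant 10% of all genes per kb were 16 regulators (30.2% of them) and 4 core genes (12.1%). The groups overlapped widely, and the core median less the regulator median was -0.56 log2 CPM per kb.

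The difference was larger before lengths were divided out. In log2 CPM, which counts reads and is not scaled to length, the median was 4.71 for core genes and 6.77 for regulators, a difference of -2.06. Over all 14015 genes it was 4.03. Core genes thus stood less far above the typical gene than per kb, and the median of the 7 LSm genes, 3.63, was below it. Core transcripts were short, with a median of 1820 nt, while regulators had a median of 3116 nt and all genes one of 3139 nt. Dividing by the longest coding transcript left a difference of -0.56. Dividing by the median length of a gene's coding transcripts left -1.29, so the size of the gap depended on the transcript taken, while the regulator median stayed above the core median with each length tried.

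**Figure D1:**
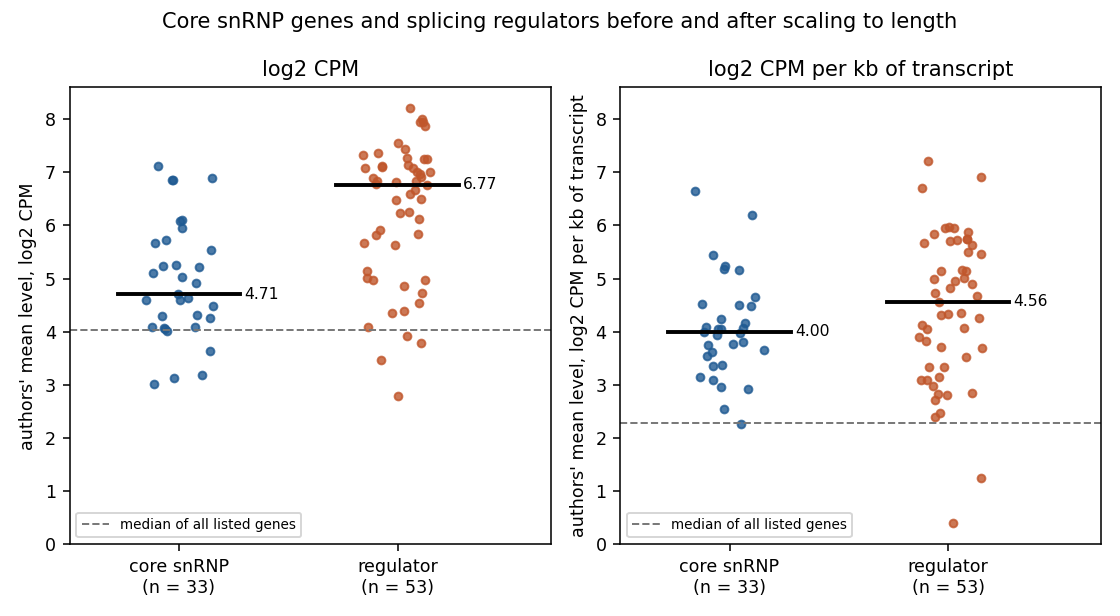
Levels of 33 core snRNP genes and 53 regulators as the authors' mean log2 CPM (left axis and panel) and as log2 CPM per kb of the longest coding transcript (right). Each point is 1 gene, the black bar is the group's median and the dashed line is the median of all listed genes; the medians are 4.71 and 6.77 on the left, and 4.0 and 4.56 on the right.

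Within the core group, level in log2 CPM rose with transcript length. Across the 33 core genes, Spearman's rho between the level and the length was 0.629, and across the 11 U2 genes it was 0.891. Across the 53 regulators it was 0.0968, and across all genes it was 0.0584. These are descriptions across genes, which are not independent replicates and share the same 6 libraries. Among the core genes the shortest transcript, that of Lsm5 at 494 nt, had the lowest level at 3.03 log2 CPM. The long transcripts of Sf3b1 (6195 nt) and Prpf8 (7442 nt) reached 7.11 and 6.90 log2 CPM. Per kb, Lsm5 was at 4.04, Sf3b1 at 4.48 and Prpf8 at 4.0. Over all 33 core genes the full range was no narrower per kb, at 2.26 to 6.65 against 3.03 to 7.11 in log2 CPM. The genes between the lower and upper quartiles were closer together per kb. Those quartiles were 3.55 and 4.495 per kb, against 4.09 (Prpf3) and 5.68 (Prpf6) in log2 CPM.

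**Figure D2:**
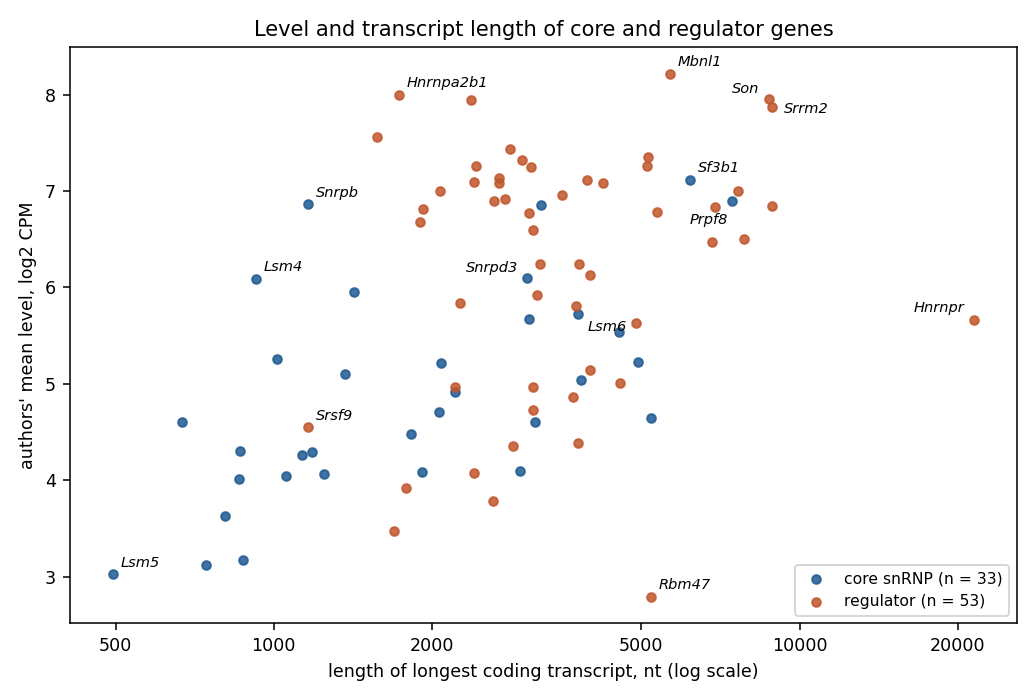
Authors' mean log2 CPM (vertical axis) against the length in nt of the longest coding transcript (horizontal, log scale) for 33 core snRNP genes and 53 regulators, 1 point per gene. Core genes climb with length (Spearman's rho 0.629) and regulators do not follow it (0.0968); Hnrnpr has the longest transcript, at 21452 nt.

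By class, the hnRNP genes had the highest median of any class, 5.06 log2 CPM per kb, at the 88.9th percentile of all genes. The U1 class, of only 2 genes (Snrpc at 5.24 and Snrpa at 4.65), came next with a median of 4.95 (percentile 88.0). The SR genes followed at 4.81 (percentile 86.7), then the Sm genes at 4.51 (percentile 83.8), the regulators taken by name at 4.29 (percentile 81.6) and the LSm genes at 3.94 (percentile 77.4). Lower medians were those of the U2 genes at 3.66 per kb, the spliceosome-associated genes at 3.54, the Rbm regulators at 3.14 and the U4/U6.U5 genes at 2.95. This order of classes depended on the length used. Per kb of coding sequence the SR and Sm medians were above the hnRNP median. The SR median then lay between Srsf6 (6.94) and Srsf10 (6.16), the Sm median between Snrpe (6.46) and Snrpf (6.26), and the hnRNP median between Hnrnpd (6.38) and Hnrnpl (6.25). The Rbm regulators, with a median of 3.83, were then below the U4/U6.U5 genes, with one of 4.02. The 27 RNA-binding genes placed outside the core, associated and regulator groups had a median of 2.17 per kb, at percentile 48.1. They thus stood at the level of the typical gene.

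**Figure D3:**
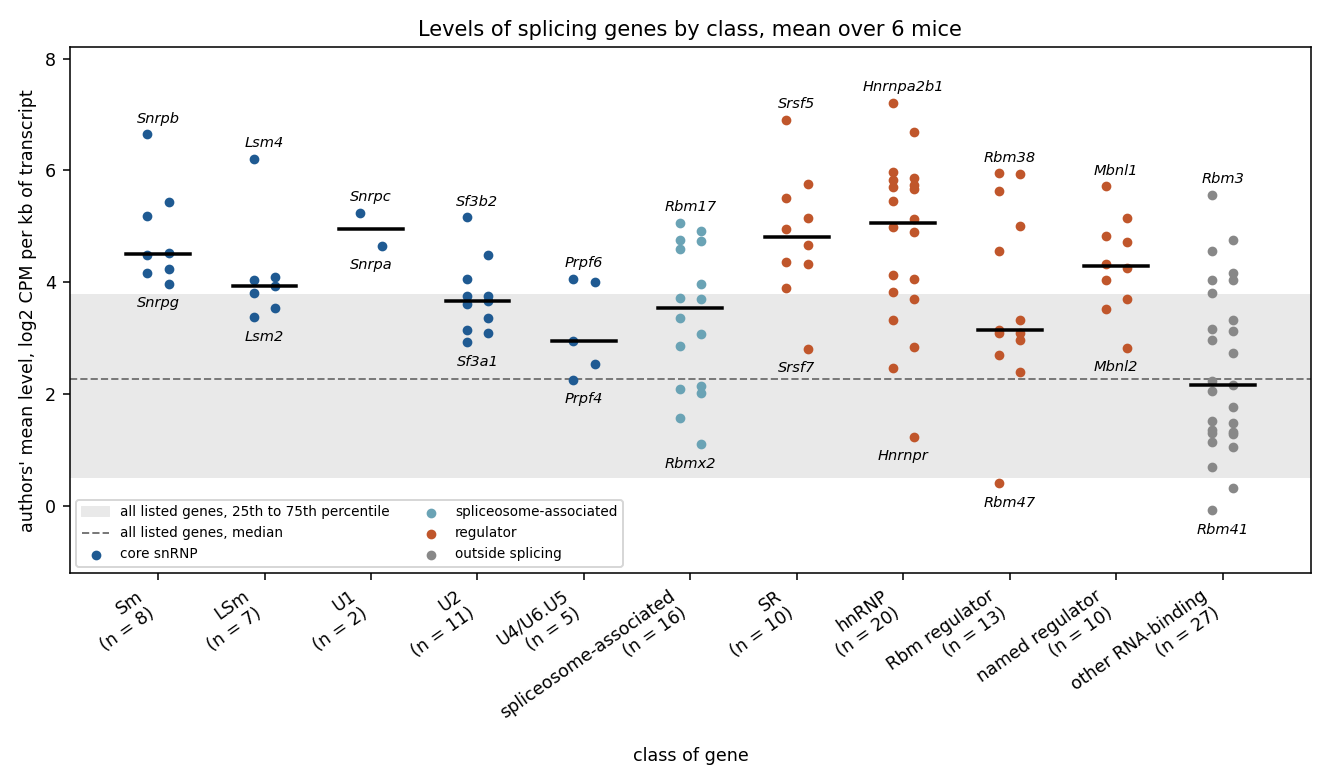
Level of each member in log2 CPM per kb (vertical axis) by class of gene (horizontal axis, with the number of genes), 1 point per gene and the class median as a black bar; the highest and lowest gene of each class are named. The grey band runs from the 25th to the 75th percentile of all listed genes (0.53 to 3.78) and the dashed line is their median (2.27). All Sm, LSm, U1, U2, SR and name-taken regulator genes lie above the dashed line.

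The Sm proteins form the ring around the RNA of the U1, U2, U4 and U5 snRNPs, 1 copy of each to a ring. Their genes spanned a 6.39-fold range per kb. Snrpb, which encodes the SmB proteins, was highest at 6.65 log2 CPM per kb, followed by Snrpd2 at 5.44 and Snrpe at 5.18. The lowest were Snrpn at 4.16 and Snrpg at 3.97. Snrpn, an imprinted gene known for its expression in neurons, encodes a near relative of SmB that takes its place in the ring, and Snrpb stood 5.6-fold above it. The mRNA levels of ring partners were unequal on this scale, and their rank depended on the length used. Per kb of coding sequence alone, Snrpd3 came first at 7.5, ahead of Snrpd2 at 7.45 and Snrpb at 7.39. The value of Snrpf, 4.52 per kb, is uncertain, since 92.1% of the 31-base words in its transcript also occur in other transcripts, mainly those of the overlapping gene Ccdc38.

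The LSm proteins form the matching ring on U6 RNA. Here Lsm4 stood apart at 6.20 log2 CPM per kb, and the other LSm genes lay between 3.37 for Lsm2 and 4.09 for Lsm7. The distance from Lsm4 to Lsm2 was 7.11-fold. Lsm6 has a long transcript for a short protein (3792 nt, of which 240 nt are coding), so that it had 3.80 per kb of transcript, in the middle of the ring, and 7.79 per kb of coding sequence, the most of the ring. Lsm8 is found in the nuclear ring on U6 alone and Lsm1 takes its place in the cytoplasmic ring that acts in mRNA decay, while the other subunits serve both. Lsm8 was 3.42-fold above Lsm1 per kb (3.94 against 2.17), but in log2 CPM they differed by only 0.05, their transcripts being 807 nt and 2663 nt long.

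U2 snRNP genes, which include the SF3a and SF3b complexes that clamp the branch point, covered a 4.71-fold range. Sf3b2 was highest at 5.16 log2 CPM per kb, with Sf3b1, the scaffold around the branch point that is often mutated in blood cancers, at 4.48, and Sf3b6, which sits next to the branch adenosine, at 4.05. The lowest were Sf3b5 at 3.09 and Sf3a1 at 2.93. Sf3b5 has a single exon of 3841 nt that codes over 258 nt, and per kb of coding sequence it rose to the head of the class at 6.99. The U2-specific genes Snrpa1 and Snrpb2 had 3.75 and 3.66 per kb. The value for Sf3b4, 3.15 per kb, is uncertain because 57.9% of its words are shared with other transcripts.

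The 5 tri-snRNP genes had the lowest median per kb of the core classes. Prpf6, a bridge between U5 and U4/U6, had 4.06 log2 CPM per kb and Prpf8, the large U5 protein that holds the catalytic centre, had 4.0. Prpf31, Prpf3 and Prpf4, all proteins of the U4/U6 part, followed at 2.95, 2.54 and 2.26. The genes of the U5 side were both above those of the U4/U6 side, with 3.50-fold between the extremes. The distance depended on the length used. Per kb of coding sequence Prpf6 (4.18) and Prpf8 (4.09) were barely above Prpf31 (4.02) and Prpf4 (4.0), and Prpf3 was last at 3.06. Mutations in these human genes are known to cause retinitis pigmentosa, a disease of the retina.

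Spliceosome-associated genes spread over a 15.5-fold range, wider than that of any core class. Rbm17, a factor that can stand in for U2AF on short pyrimidine tracts, was highest at 5.06 log2 CPM per kb. The subunits of U2AF, which together read the end of the intron, came next, U2af2 at 4.91 and U2af1 at 4.75, a ratio of 1.12. Of the words in U2af1, 63.9% are shared, so its value is uncertain. Prpf19, the ubiquitin ligase of the complex that activates the spliceosome, was at 4.74. Its transcript has 6035 nt, of which 1569 nt are coding. In log2 CPM (7.33) and per kb of coding sequence (6.68) Prpf19 led the class, and Rbm17 had 5.46 on the latter scale. The lowest were Rbm48, a protein of the minor spliceosome, at 1.58 and Rbmx2 at 1.10. In all, 11 of the 16 genes were above the all-gene median, and those below it included the kinase gene Prpf4b at 2.09.

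SR genes are known for keeping their own levels in check through alternative exons that carry an early stop codon, known as poison exons. Including such an exon sends the mRNA to nonsense-mediated decay. In GENCODE M21 (GRCm38), 9 of the 10 SR genes have at least 1 transcript annotated as a target of this decay, Srsf10 being the exception. Such a transcript is annotated for 10 of the 20 hnRNP genes, for 60.4% of all regulators and for 24.2% of core snRNP genes, beside 27.0% of all genes with a transcript length. Regulators also have more annotated transcripts, with a median of 10 against 5 for core genes and 5 for all genes, which gives them more chances to have such a transcript. The level of a gene here sums all of its transcripts, so the part that went to decay was not measured.

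**Figure D4:**
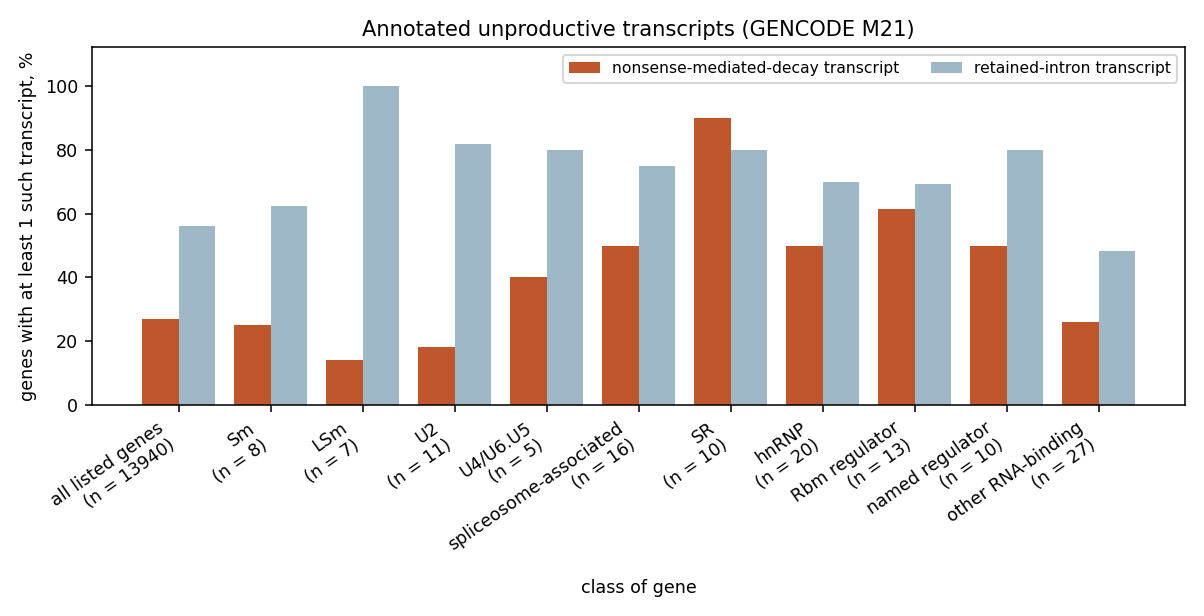
Percent of genes in each class (vertical axis) with at least 1 transcript that GENCODE M21 annotates as a target of nonsense-mediated decay (dark bars) or as retaining an intron (light bars); the horizontal axis gives the classes and the number of genes. The SR genes reach 90.0% for decay transcripts and all 7 LSm genes have a retained-intron transcript; the U1 class of 2 genes is not drawn.

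The decay transcripts were searched for exons that no coding transcript of the same gene overlaps and in which the reading frame meets its stop. There were 32 such exons in 24 of the 130 members, among them 13 of 53 regulators and 4 of 33 core genes. Exons with different bounds were counted apart, so the 32 include 2 of Rbm4b that overlap and share their end. Other genes were not searched, so no share over all genes stands beside these counts. Genes with more annotated transcripts also have more chances to hold such an exon. SR genes with one were Srsf3, Srsf4, Srsf7, Srsf9 and Srsf11, 5 of 10. First and last exons were left out, as were exons that overlap an exon of a coding transcript. The other SR genes may therefore still have a poison exon. The exons of 5 members are shown here because exons of this kind are the known link between splicing and level in these families. Each runs 5′ to 3′ on the strand of the gene, from the first base of the exon to its stop codon, which is in capitals. The members were matched by symbol, and the letters and positions are those of GRCm38.

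Srsf3 (Srsf3-201, exon 4 of 7, chr17:29039454-29039487, plus strand): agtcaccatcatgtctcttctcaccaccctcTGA

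Srsf7 (Srsf7-203, exon 4 of 9, chr17:80205054-80205081, minus strand): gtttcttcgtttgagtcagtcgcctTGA

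Snrpb (Snrpb-203, exon 3 of 8, chr2:130176695-130176752, minus strand): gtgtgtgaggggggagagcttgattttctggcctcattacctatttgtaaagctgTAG

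Hnrnpl (Hnrnpl-213, exon 6 of 13, chr7:28817335-28817393, plus strand): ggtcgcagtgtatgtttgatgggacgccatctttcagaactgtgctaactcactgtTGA

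Hnrnpll (Hnrnpll-203, exon 7 of 14, chr17:80044976-80045022, minus strand): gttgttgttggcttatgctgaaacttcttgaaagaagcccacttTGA

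The exons of Srsf3 and Srsf7 are long and alike in size, 456 nt and 460 nt, and in both the stop comes soon, after 34 and 28 bases. Those of Hnrnpl (70 nt), Hnrnpll (83 nt) and Snrpb (124 nt) have the length of ordinary exons. All 5 genes carry such an exon while their levels differ widely. Srsf3 and Srsf7, which encode closely related SR proteins, stood at 5.51 and 2.82 log2 CPM per kb, 6.46-fold apart. Hnrnpl and its paralog Hnrnpll stood at 5.71 and 3.33, 5.21-fold apart, and Snrpb was the highest core gene of all. Having a poison exon in the annotation thus went with high and with low levels in this tissue. Rbm39, a cofactor of U2AF, had the most of these exons, 5 in number, and was among the highest Rbm genes at 5.94 per kb.

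The SR genes ran from Srsf5 at 6.91 log2 CPM per kb to Srsf7 at 2.82, a 17.1-fold range. Srsf2, which binds exonic enhancers and marks nuclear speckles, was second at 5.75, ahead of Srsf3 at 5.51 and Srsf6 at 5.14. Srsf11 (4.96), Srsf4 (4.67), Srsf1 (4.36) and Srsf9 (4.33) formed the middle. Srsf10, known as a repressor when it loses its phosphates, was at 3.90. The low end on this scale was held by an unusual SR protein and by a near relative of the much higher Srsf3. The place of Srsf10 rests on its transcript of 3754 nt, of which 786 nt are coding. Per kb of coding sequence it had 6.16, above Srsf11 (5.97), Srsf4 (5.28) and Srsf9 (5.14). Srsf1, the founding member of the family, has a transcript of 5362 nt of which 759 nt are coding. It had 7.18 per kb of coding sequence, a scale on which Srsf3 came first at 7.92 and Srsf7 last at 4.57. The value of Srsf4 is uncertain, as 66.5% of its words are shared.

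**Figure D5:**
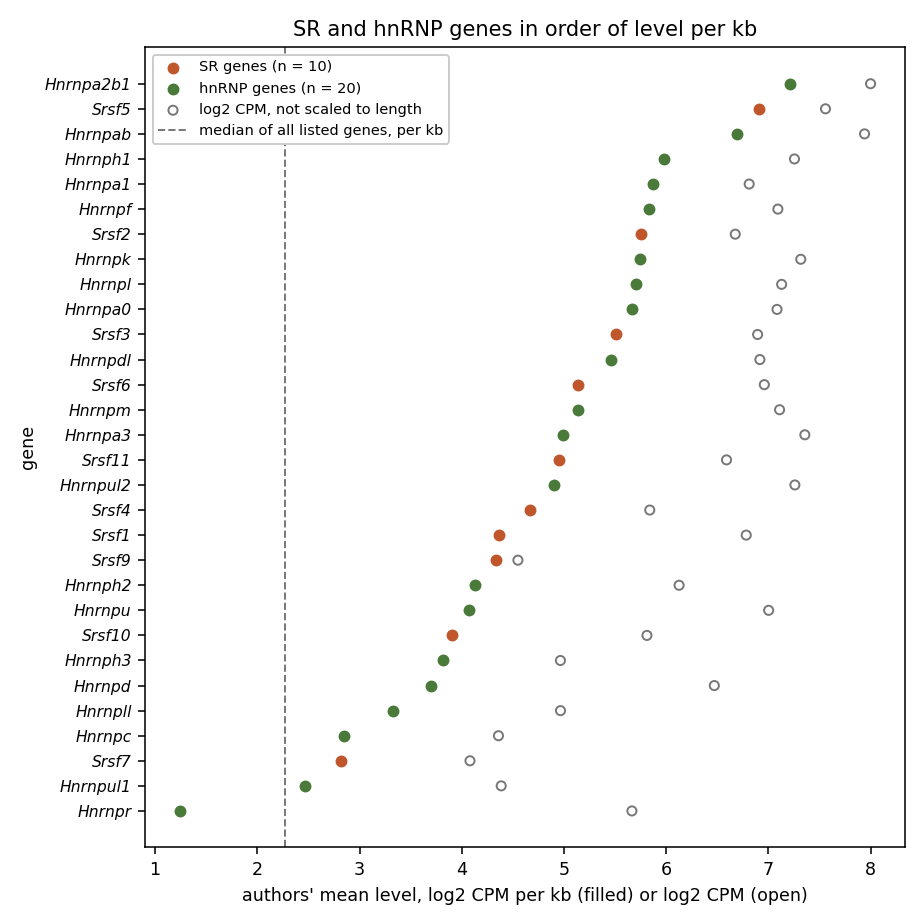
Levels of 10 SR and 20 hnRNP genes (vertical axis) in order of log2 CPM per kb (filled points), with log2 CPM not scaled to length as open points on the same horizontal axis; the dashed line is the median of all listed genes per kb (2.27). Hnrnpa2b1 (7.21), Srsf5 (6.91) and Hnrnpab (6.70) lead, and Hnrnpr (1.24) is the only gene of these below the dashed line.

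Among the 20 hnRNP genes, 9 were in the most abundant 10% of all genes per kb (45.0%). Hnrnpa2b1, which packages RNA and recognises short sorting signals in it, was the highest member of all at 7.21 log2 CPM per kb, at percentile 97.4. Hnrnpab at 6.70 and Hnrnph1 at 5.98 followed, then Hnrnpa1, the classic opponent of SR proteins, at 5.87. Hnrnpk, which binds stretches of C, had 5.75, and Hnrnpl, which binds CA repeats, had 5.71. The leading genes thus bind quite different sequences. At the lower end, Hnrnpc, which coats stretches of U, was at 2.85, Hnrnpul1 at 2.47 and Hnrnpr at 1.24. The place of Hnrnpr rests on its annotated transcript of 21452 nt. In log2 CPM it had 5.67, and per kb of its 1896 nt of coding sequence it had 4.74, which put it above Hnrnpul1, then the last at 3.02. For Hnrnpf, at 5.83 per kb, 70.6% of words are shared, so its value is uncertain.

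Related hnRNP genes were unequal. Hnrnph1 was 3.59-fold above Hnrnph2 per kb (5.98 against 4.13), both encoding proteins that bind runs of G. Hnrnpul2 was 5.42-fold above Hnrnpul1 (4.90 against 2.47). In each of the pairs named here the same gene was also ahead in log2 CPM, by 1.13 for Hnrnph1 and by 2.87 for Hnrnpul2. The pairs were chosen by known kinship, and without values per mouse none of these ratios has an error.

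The Rbm regulators were spread widely, with a gap between 4.56 and 3.34 log2 CPM per kb. The gap depended on the length used. Per kb of coding sequence Rbmx, at 4.49, lay between Rbm5 at 4.95 and Rbm20 at 3.78. Rbm38, which supports muscle differentiation, had 5.95 log2 CPM per kb, Rbm39 had 5.94 and Rbm24, a splicing factor of heart and skeletal muscle, had 5.63. Rbm25 (5.01) and Rbm5 (4.56) were the others above the gap. All others were at or below 3.34, the value of Rbm20, which controls the splicing of titin and is known mainly from the heart. Rbm24 was 4.89-fold above Rbm20 per kb. Rbm5 was 2.99-fold above Rbm10 and 2.67-fold above Rbm6, its relatives of the same subfamily, though 53.7% of the words of Rbm10 are shared. The lowest were Rbm4 at 2.40, with 66.7% of words shared, and Rbm47, known from epithelia, at 0.41, which is percentile 23.7 of all genes. Per kb of coding sequence Rbm4, at 3.67, was above Rbm6 at 3.40, while Rbm47 was still the lowest at 1.965.

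Of the 5 members with the highest log2 CPM, Mbnl1, Son and Srrm2 were regulators taken by name, and Hnrnpa2b1 (8.0) and Hnrnpab (7.94) were hnRNP genes. Mbnl1, the muscleblind protein that is trapped by CUG repeats in myotonic dystrophy, had the highest log2 CPM of all 130 members at 8.22, and 5.72 per kb. Its relative Mbnl2 was at 2.83 per kb, 7.43-fold lower, which made it the lowest of these 10 genes. Rbfox1 was at 5.15 and Rbfox2 at 4.05 per kb, a ratio of 2.15. In log2 CPM the Rbfox genes differed by -0.07, so their order came from the lengths of 3061 nt and 6907 nt. Celf2 and Celf1, which oppose Mbnl proteins at many exons, were nearly equal at 3.70 and 3.53 per kb, a ratio of 1.12.

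The scaffold genes of nuclear speckles, where splicing factors are stored, had very long transcripts. Son (8731 nt) and Srrm2 (8864 nt) were at 7.95 and 7.87 log2 CPM, among the 5 members with the most reads. Per kb they were at 4.83 and 4.73, close to Srrm1 at 4.32 and within the range of the SR genes. Ptbp1, which represses exons next to stretches of pyrimidines and is known to fall as muscle and nerve cells mature, stood at 4.26. No name-taken regulator was below the all-gene median of 2.27 per kb.

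Members placed outside the core, associated and regulator groups were fewer and mostly lower. Rbm3, a protein induced by cold, was the exception at 5.57 log2 CPM per kb and was the only one of these 28 in the most abundant 10%. Lsm14a, a component of P bodies, had 4.77 and Lsm12 had 4.56. Lsm10 and Lsm11 serve together in the U7 snRNP, which trims histone mRNAs, yet stood at 3.17 and 0.33 per kb, 7.16-fold apart. They differed by 0.07 in log2 CPM, with transcripts of 943 nt and 6453 nt. Rbm41 was the lowest of all members at -0.08 per kb. Lsmem1 encodes a membrane protein that shares only the letters of the symbol, and it was at 2.79. Over all members, the highest and the lowest level per kb were 156-fold apart.

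In GENCODE M21, 142 genes match the rule, and 12 of them were not analysed here. Of these, 8 are coding genes (Rbm11, Rbm31y, Rbm44, Rbm46, Rbm8a2, Rbmxl2, Rbmy and Srsf12), and 4 are of other types (Lsmem2, Rbm3os, Rbm46os and Snrpert). The coding ones are largely relatives known from testis or brain.

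Reads that fit several genes were split by estimation, so closely similar sequences make a level uncertain. Over the 130 members the median share of 31-base words that also occur in other genes' transcripts was 6.40%, and 79 members had under 10%. It was above 50% in 13 members. Besides those already named, these were Rbm42 (92.4%), Rbmxl1 (87.1%), Rbm12b1 (71.0%), Rbm12b2 (61.4%), Rbm4b (52.1%) and Snrpa (50.8%). The highest member of each core and regulator class had less than that share.

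The windows from 250 bases before to 50 bases after the start were read from RefSeq promoters (GRCm38.p6), where 110 members matched by symbol. The median number of CG pairs was 32 in regulators and 23.5 in core genes, beside 21 in all 10365 genes matched. The letters CCAAT, on either strand, were in 59.2% of 49 regulator genes, in 39.3% of 28 core genes and in 42.4% of all. TATAAA, on either strand, was in 18.4%, 10.7% and 9.21%. For a gene with several windows, the highest CG count was taken, and the letters counted if any window held them. A gene with more windows thus has more chances, and the number of windows per gene was not compared between groups. These counts describe letters in the windows and do not show that a factor was bound.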

How the data were processed

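Quadriceps muscle from 3 WT and 3 ΔdblGATA mice was sequenced after polyA selection with ERCC spike-in. The authors assigned reads with kallisto, converted gene totals to CPM in edgeR, removed genes not exceeding 1 CPM in 3 or more libraries, took logs, scaled by TMM and fitted limma. Per the labels the build was GRCm39 (mm39). The table the authors deposited gives log2 values per gene: the mean log2 CPM over all 6 mice, which is used here. Its 5 other columns hold their genotype comparison (fold change, moderated t, p-value, adjusted p-value and log odds) and were not used. Values per mouse and depth per sample were not analysed here, so no SD, interval or test is given.

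Of 14016 rows, 1 had no symbol. A transcript length was found in GENCODE M21 (GRCm38) for 99.5% of symbols, 13458 under the same symbol and 482 under another. Lengths and transcript types are those of M21, which is not the authors' build. Level per kb is mean log2 CPM less the log2 of the longest coding transcript in kb. To measure shared sequence, the longest transcript was cut into 31-base words, and the percentage of words that any other gene's transcripts also hold, in either orientation, was taken, with values above 50% taken as uncertain. Percentiles refer to all genes with a length. The median difference between core genes and regulators and the percentile were computed on simulated levels (Python 3.11.15, pandas 2.3.3, scipy 1.17.1). The simulation added and removed the same lengths, so it checked the arithmetic alone. Symbol matching, the choice of length, shared words, exons with stops and promoter letters were not tested in this way.

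Members and lists were chosen with earlier results of these data known. Genes named were, in each class, the 3 highest and 2 lowest per kb, the 12 taken by name, those with a known role in muscle, those that encode no splicing protein, and annotated matches not analysed here. Other genes named, for kinship, poison exons, shared sequence or as neighbours in an order, were chosen after their values were seen.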

Additional observations from a re-analysis of the deposited data

How the results depend on the processing

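The difference between the medians of core snRNP genes and regulators was negative under every alternative that was run. In log2 CPM it was -2.06, and it moved to -1.30 with means in place of medians. Per kb it was -0.56, and it moved to -1.29 when the median length of the coding transcripts replaced the longest; the cause was not tested. The other alternatives gave -2.15 to -1.91 in log2 CPM and -0.97 to -0.35 per kb. They were minimum levels of 1 and 3 log2 CPM, associated genes counted as core, regulators limited to SR and hnRNP genes, means for the values per kb, the longest transcript of any type, and coding length. Leaving out the 13 members that share over 50% of their words, chosen after seeing the data, gave -2.0 and -0.74. With coding genes alone as the background, class percentiles moved by less than 1 point. Without Lsmem1 there were 129 members.

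No paired analysis was possible because the values used are means over all 6 mice. For the same reason the planned limma fits with and without the replicate block, the fits leaving out each mouse, and other pseudocounts, normalizations and filters were not run, nor were features of the protein sequences, for which no table was used here. The unknown depth limits the lowest members most.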
